A study of Homo sapiens with 6 samples.

Results

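The genes described here are the RAB GTPases, taken as every counted gene symbol that consists of RAB, digits, an optional letter and an optional digit. This naming rule, which uses no measured value, found 61 of the 24462 distinct symbols in the data. The series measured H460 cells, an established human lung cancer cell line, by 3′-end mRNA sequencing with a Lexogen QuantSeq kit. The depleted group (3 libraries) held cells kept for 24 h in glutamine-free medium with dialyzed serum, and the replete group (3 libraries) held glutamine-replete cells of the same line. All 6 libraries therefore share the genotype of 1 cell line. The labels give no time in culture for the replete cells, and which serum they received is not stated. Nor is it stated that each library is a culture of its own, so the p-values reflect only how far these libraries scatter, which may be technical.

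RAB proteins are small GTPases that mark membranes and direct vesicles between compartments. An exchange factor loads a RAB with GTP on its target membrane, where it recruits effectors such as tethers and motors. A GTPase-activating protein returns it to the GDP form, which a GDP dissociation inhibitor lifts off the membrane. For this text each member was placed in 1 class by a known site of action. These are 26 secretory RABs of the endoplasmic reticulum, Golgi and exocytosis, and 16 endosomal RABs of early and recycling endosomes. There are also 12 lysosomal RABs of late endosomes, lysosomes, lysosome-related organelles and autophagy, and 7 others. Several RABs act at more than 1 site, so the classes simplify. RAB29, placed as lysosomal, also acts at the Golgi, and the counts, medians and shares by class depend on such placing.

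The libraries held 7550849 to 10914899 counts. Levels are given as CPM, a gene's share of the library total on the usual scale. A count of 0 allows up to 3 counts, or 0.275 to 0.397 CPM per library, for counting error only. Counts come from transcript 3′ ends and were not divided by transcript length. Levels are not compared between genes, except as ratios of counts and as shares of RAB counts. Log2 fold changes are depleted minus replete after trimmed-mean (TMM) scaling, which put the median of all genes tested at −0.02, against −0.25 with library totals alone. Fold values come from the same scaling and are therefore larger than the ratio of CPM for genes that rose and smaller for genes that fell. Calls are an adjusted p under 0.05 in edgeR's quasi-likelihood test over all 12739 genes tested. Among epithelial markers, KRT8, KRT18 and KRT19 were present, whereas EPCAM had 0 to 4 counts and CDH1 0 or 1 per library. The 5 epithelial markers summed to 2067 to 2092 CPM in replete and 761 to 881 CPM in depleted libraries. Lung lineage markers summed to at most 2.63 CPM and endothelial markers to at most 0.126 CPM. Blood cell markers, mostly CD68, summed to 6.20 to 8.71 CPM in replete and 4.04 to 5.50 CPM in depleted libraries. Fibroblast markers summed to 5.32 to 17.1 CPM in replete and 6.76 to 75.6 CPM in depleted libraries, highest in depleted replicate 3. The part of these markers in the results below was not tested. In bulk RNA, a transcript lost from some cells and less of it in every cell cannot be told apart.

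Of the 61 members, 49 had enough counts to be tested. Of these, 21 rose and 18 fell in depleted cells, and 10 did not pass. That is 79.6% called, beside 78.6% of all genes tested, so the share of RABs that changed was near the background. By more than 2-fold, 14 rose and 11 fell, where the background over all genes tested was 21.8% and 23.7%. The CPM ranges of the groups did not overlap for 40 of the 49, beside 81.0% of all genes tested. The median log2 fold change was 0.12 for the tested members and −0.02 for all genes tested. Members moved in both directions: RAB30, RAB1A, RAB21, RAB14, RAB5A and RAB7A were among those that rose, and RAB3B, RAB3D, RAB27B, RAB11A, RAB20 and RAB12 among those that fell.

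Set side by side, 8 of 21 tested secretory RABs rose and 8 fell, with a median log2 fold change of −0.19. Of 13 endosomal RABs, 6 rose and 6 fell, with a median of −0.25. Of 11 lysosomal RABs, 6 rose and 1 fell, with a median of 0.73. Of the 4 other RABs tested, 1 rose and 3 fell. Over all genes tested, 39.1% rose and 39.4% fell. These counts describe the classes, and no difference between classes was tested.

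**Figure D1:**
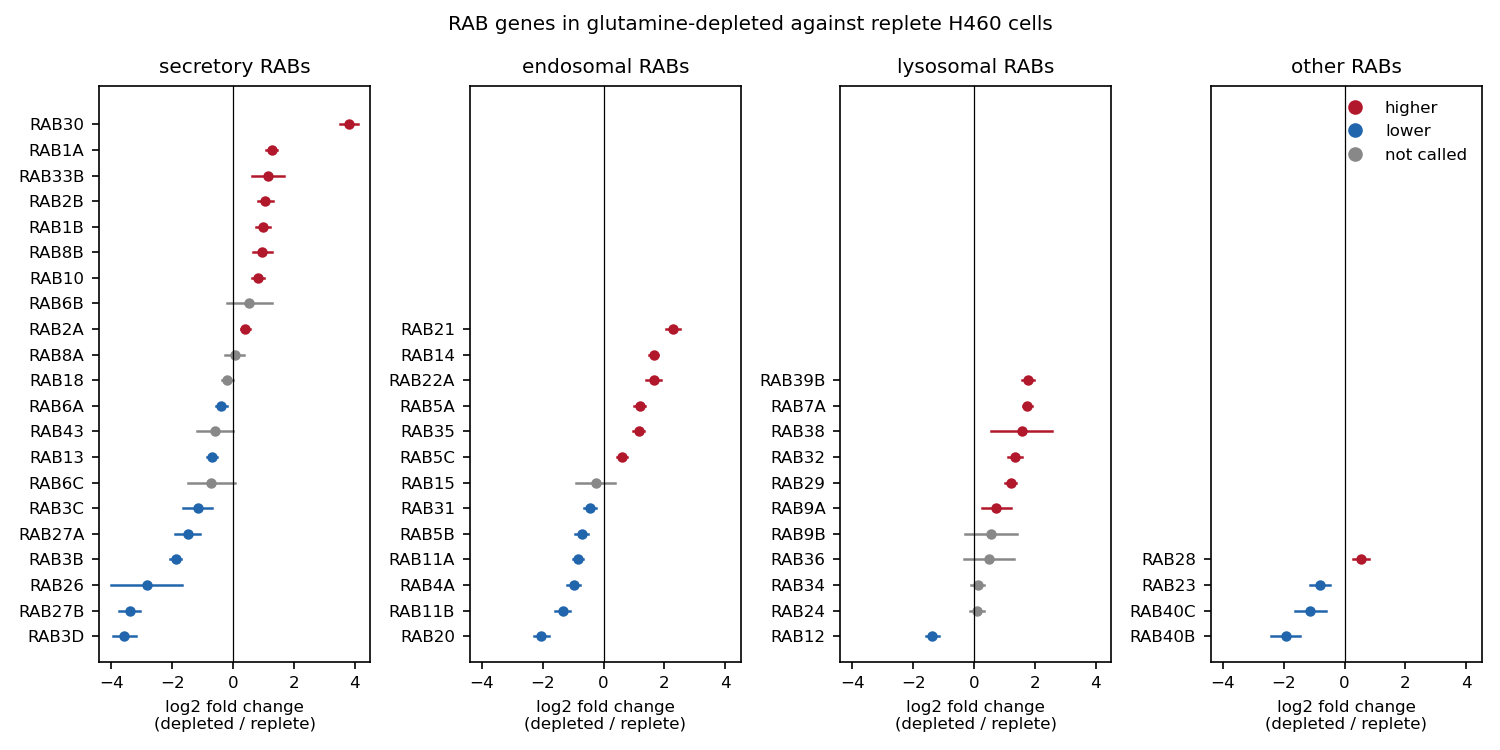
Log2 fold change (x axis, depleted over replete) of the 49 tested RAB genes, one row per gene, in panels by class; points are edgeR estimates, bars their 95% intervals and colours the call. The secretory panel spans −3.58 (RAB3D) to 3.81 (RAB30), while RAB12 is the gene that fell among the 11 tested lysosomal RABs.

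Secretory RABs moved in both directions. RAB1A, RAB1B, RAB2A and RAB2B, which act between the endoplasmic reticulum and the Golgi, rose. RAB1A, which recruits tethers to vesicles bound for the Golgi, stood at 242, 246 and 229 CPM in replete replicates 1, 2 and 3 and at 546, 429.8 and 514 CPM in depleted replicates 1, 2 and 3 (2.43-fold higher, log2 fold change 1.28, SE 0.08, edgeR adjusted p = 1.42e-08). Its close homologue RAB1B went from 36.1, 37.3 and 36.6 to 59.4, 71.02 and 55.1 CPM (1.98-fold higher). The groups did not overlap for either gene, and the lowest depleted library for RAB1A was replicate 2. RAB2B, a Golgi RAB, went from 46.7, 53.3 and 46.9 to 80.5, 101 and 80.6 CPM (2.09-fold higher), and RAB2A rose less, from 122, 118 and 120.4 to 135, 138 and 135 CPM (1.32-fold higher, edgeR adjusted p = 0.000162). The families in this paragraph and in those that follow were singled out after their values were seen.

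RAB30, a Golgi RAB, rose more than any other member. It stood at 5.095, 4.67 and 3.58 CPM in the replete libraries, with 46, 37 and 27 counts, and at 56.99, 54.2 and 50.5 CPM in the depleted libraries (14.1-fold higher, log2 fold change 3.81, SE 0.14, edgeR adjusted p = 5.61e-11). Every depleted library was thus far above every replete one. RAB33B, a Golgi RAB that also binds the autophagy factor ATG16L1, went from 3.597 ± 0.584 to 6.84 ± 1.797 CPM (mean ± SD, n = 3 per group, 2.22-fold higher, edgeR adjusted p = 0.000667). RAB10 and RAB8B, RABs of post-Golgi transport, rose too. RAB10, which carries transporters and receptors to the cell surface, went from 168, 169 and 166 to 280.1, 217 and 264 CPM (1.77-fold higher), and RAB8B, which acts in the same step, from 11.3, 10.7 and 9.67 to 18.3, 15.2 and 19.6 CPM (1.96-fold higher). All depleted libraries were above all replete ones for these genes.

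The tested RABs of the RAB3 and RAB27 families, known from regulated secretion, fell. The RAB3 and RAB27 proteins sit on secretory vesicles and granules and prepare them for fusion with the plasma membrane. Of these 2 families, 5 genes could be tested and 5 fell, each by more than 2-fold. Over all genes tested, 39.4% fell and 23.7% fell by more than 2-fold. The 2 families were singled out after their values were seen. RAB3B stood at 335, 335 and 336 CPM in replete libraries, nearly without spread, and at 74.7, 87.4 and 71.1 CPM in depleted ones (3.68-fold lower, log2 fold change −1.88, SE 0.09, edgeR adjusted p = 4.86e-10). RAB3D, the form best known from exocrine granules, went from 26.1, 31.4 and 30.1 to 2.38, 1.95 and 1.85 CPM (11.9-fold lower, log2 fold change −3.58, SE 0.17, edgeR adjusted p = 7.56e-10), the lowest fold change of all members. RAB3C, a further vesicle RAB, went from 10.1 ± 0.699 to 3.87 ± 1.26 CPM (n = 3 per group, 2.23-fold lower). RAB3A, the main synaptic vesicle form, fell short of the count filter. Its counts were 5, 8 and 9 in replete replicates 1, 2 and 3 and 0 in each depleted library. Set against a floor of 3 counts over the depleted group, that is 7.24-fold lower on the TMM scale. This value takes the 22 replete counts as exact, so it is not a lower limit. Exons of RAB3A overlap the counted gene MPV17L2 on the other strand.

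RAB27B, which docks secretory granules and exosome-bearing endosomes at the cell surface, went from 31.9, 30.8 and 33.1 to 2.93, 1.95 and 2.77 CPM (10.6-fold lower, log2 fold change −3.40, SE 0.16, edgeR adjusted p = 7.04e-10). RAB27A, mutated in Griscelli syndrome, went from 9.53, 9.598 and 8.87 to 2.57, 3.09 and 2.88 CPM (2.81-fold lower). RAB26, another granule RAB, had 22, 15 and 16 counts in replete and 5, 0 and 2 in depleted libraries (log2 fold change −2.84, SE 0.53, and −3.84 without depleted replicate 1). None of these genes had overlapping groups. RAB13, a RAB of tight junction traffic, went from 171, 174 and 186 to 87.95, 98.3 and 94.8 CPM (1.61-fold lower), and the retrograde Golgi RAB RAB6A from 82.96, 75.5 and 79.7 to 51.5, 53.5 and 50.1 CPM (1.31-fold lower). RAB3D and RAB27A have exons that overlap other counted genes in the GENCODE 29 annotation (CCDC159 and TMEM205, and PIGB and PIGBOS1). Whether strand was used in counting is not stated, and opposite-strand reads may be included.

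The RefSeq promoter windows of RAB genes (GRCh38.p14, 250 bases before to 50 after each annotated start, 48 of 61 members matched by symbol) were searched on both strands for 6 short motifs. The 7-base pattern TGANTCA allows any base at N, while the usual AP-1 site has C or G there. The stretches below are shown because this pattern was found in 5 of the 15 members that fell and had a window. It was found in 0 of the 16 that rose and in 1 of the 8 not called. It was found in 7.71% of all 35116 windows and in at least 1 window of 6.99% of the tested genes. Its shares among all genes that fell and all that rose were not counted. Capitals mark the motif, which reads nearly the same on both strands. RAB27A holds T at N, so its stretch matches the pattern but not the usual AP-1 site. The motif lies upstream of a start in each stretch, at chr1:51990791-51990841 (minus strand) for RAB3B, chr15:55270568-55270618 (minus strand) for RAB27A, chr18:54828318-54828368 (plus strand) for RAB27B, chr1:153985454-153985504 (minus strand) for RAB13, which holds a second copy beside the marked one, chr12:55973717-55973767 (plus strand) for the endosomal RAB5B, and chr17:28718238-28718288 (minus strand) for RAB34, which was not called.
RAB3B: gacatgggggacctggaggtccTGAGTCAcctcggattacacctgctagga
RAB27A: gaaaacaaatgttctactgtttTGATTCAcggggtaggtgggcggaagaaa
RAB27B: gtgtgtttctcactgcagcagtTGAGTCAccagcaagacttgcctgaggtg
RAB13: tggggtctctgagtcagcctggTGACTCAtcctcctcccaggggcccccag
RAB5B: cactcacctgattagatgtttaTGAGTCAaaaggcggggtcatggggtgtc
RAB34: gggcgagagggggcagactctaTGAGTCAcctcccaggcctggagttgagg
These motifs were chosen with the calls known, a match is only a description of the letters, and the counted data are on another build (hg19).

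Secretory RABs that did not pass the test included genes with ample counts. RAB18, which links the endoplasmic reticulum to lipid droplets, stood at 297, 278 and 278 CPM in replete and 242, 192 and 207 CPM in depleted libraries (log2 fold change −0.19, edgeR adjusted p = 0.0569). The CPM ranges did not overlap, and RAB18 was called lower in 6 of 14 alternative analyses, with adjusted p from 0.000572 to 0.175 over all of them. RAB8A, the paralogue of RAB8B, had 19.1, 22.9 and 15.8 CPM in replete and 16.9, 17.6 and 16.8 CPM in depleted libraries, with overlapping groups (log2 fold change 0.06, 95% interval −0.25 to 0.37, edgeR adjusted p = 0.712). Its direction reversed under library totals alone, with a mean CPM of at least 10 and without replete replicate 3. Of the 50-base words in the last 500 bases of RAB8A transcripts, 60.9% also occur in other genes. The counted gene HSH2D, whose exons overlap RAB8A on the same strand, holds 17.5%, so the counts of RAB8A are uncertain. For the called genes RAB3D, RAB5C and RAB1B, 37.8%, 35.2% and 32.2% of such words also occur in other genes. No counted gene holds those of RAB3D and RAB1B, and the counted gene NAPB holds 1.0% for RAB5C. RAB6B had 2.99, 2.78 and 5.297 CPM in replete and 6.23, 2.52 and 4.61 CPM in depleted libraries, with overlapping groups (log2 fold change 0.53), and was called higher only without depleted replicate 2. RAB6C and RAB43 had log2 fold changes of −0.71 and −0.60 at under 5 CPM in every library, and each was called lower in some alternatives, including library totals alone. RAB6C is a near copy of RAB6A: 32.2% of the 50-base words in the last 500 bases of its transcripts also occur in RAB6A, so reads of this pair can be misassigned. For RAB43, 64.9% occur in the read-through gene ISY1-RAB43.

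**Figure D2:**
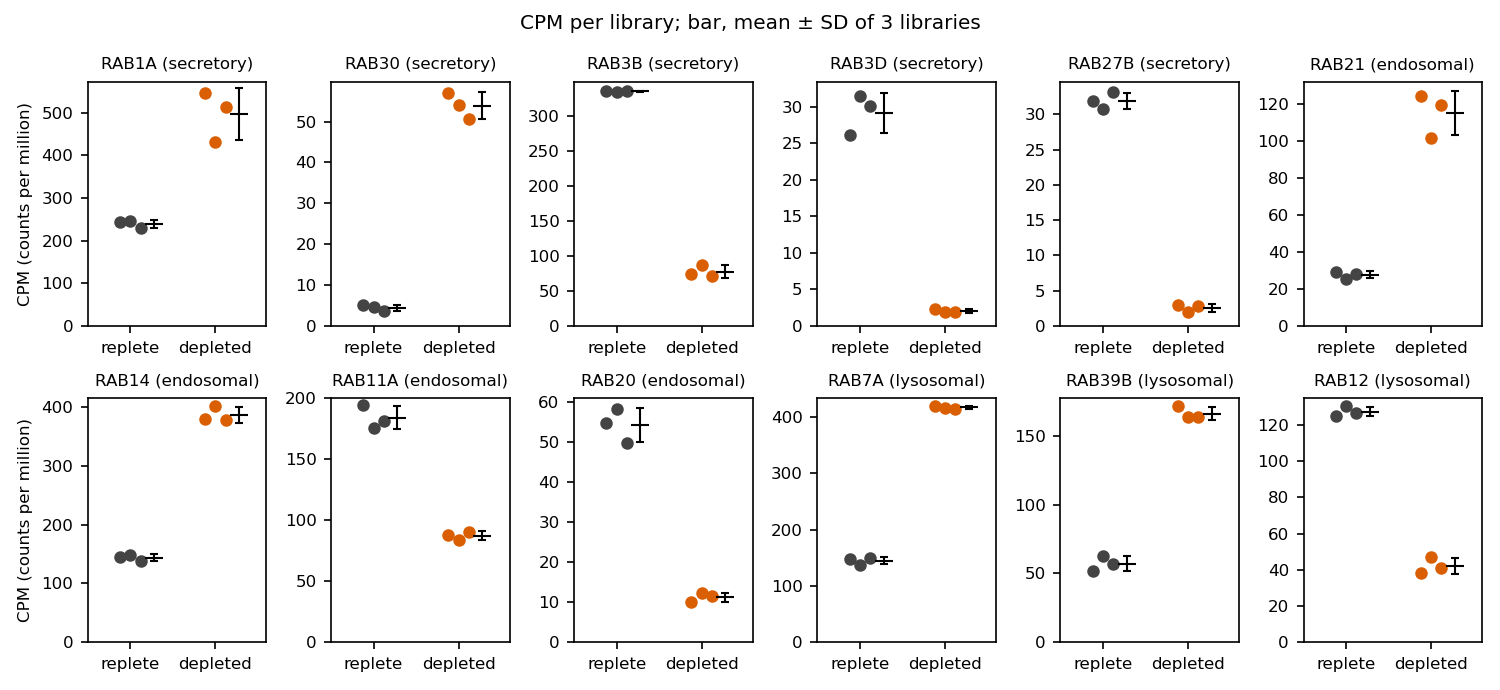
CPM (y axis, linear from 0) of 12 RAB genes in each of the 3 replete and 3 depleted libraries; points are libraries and the bar beside them is the mean ± SD. In every panel the 2 groups stand apart, with RAB3B, RAB3D, RAB27B, RAB11A, RAB20 and RAB12 lower and the other 6 genes higher in depleted cells.

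Endosomal RABs moved in both directions. RAB21, RAB22A, RAB5A, RAB14, RAB35 and RAB5C rose, while RAB11A, RAB11B, RAB4A, RAB20, RAB31 and RAB5B fell. Early endosome RABs stand on both sides, and so do RABs that act in recycling. RAB21, which returns internalised integrins, stood at 29.1, 25.5 and 28.3 CPM in replete and 124, 102 and 119.9 CPM in depleted libraries (4.87-fold higher, log2 fold change 2.29, SE 0.10, edgeR adjusted p = 3.22e-10). RAB22A, an early endosome RAB, went from 54.9, 47.5 and 55.5 to 155, 115 and 152 CPM (3.12-fold higher). RAB5A, the RAB that defines the early endosome and drives its fusion, went from 84.3, 88.3 and 83.96 to 176, 148 and 176 CPM (2.28-fold higher). In these 3 genes depleted replicate 2 was the lowest depleted library and still above every replete one. RAB14, which moves cargo between Golgi and endosomes, went from 145, 149 and 138 to 379, 402 and 377 CPM (3.14-fold higher, log2 fold change 1.65, SE 0.07), and RAB35, which sorts receptors at the plasma membrane, from 49.7, 44.8 and 49.4 to 89.7, 92.9 and 91.7 CPM (2.23-fold higher).

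RAB11A, which defines the recycling endosome, stood at 195, 176 and 182 CPM in replete and 88.2, 83.6 and 90.4 CPM in depleted libraries (1.799-fold lower, log2 fold change −0.85, SE 0.08, edgeR adjusted p = 2.96e-07). Its paralogue RAB11B went from 54.5, 51.1 and 52.7 to 16.9, 20.04 and 16.3 CPM (2.55-fold lower), with exons that overlap the antisense gene RAB11B-AS1. RAB4A, the RAB of fast recycling, went from 49.4, 50.01 and 49.5 to 22.4, 22.2 and 19.8 CPM (1.97-fold lower). All depleted libraries lay below all replete ones in these genes. RAB20, associated with phagosome maturation, fell furthest in this class, from 54.8, 58.2 and 49.7 to 10.1, 12.3 and 11.5 CPM (4.12-fold lower, log2 fold change −2.04, SE 0.12, edgeR adjusted p = 4.22e-09). RAB31, a relative of RAB22A that acts between the Golgi and endosomes, went from 186, 208 and 198 to 115, 139.9 and 115 CPM (1.37-fold lower). RAB15 was low, with a log2 fold change of −0.25 (95% interval −0.89 to 0.39).

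The RAB5 isoforms, which share the early endosome, moved in opposite directions. RAB5C went from 233, 233 and 244 to 280.4, 335 and 304 CPM (1.52-fold higher, edgeR adjusted p = 1.16e-05), as RAB5A rose, while RAB5B went from 60.03, 63.8 and 61.5 to 29.6, 35.9 and 31.03 CPM (1.64-fold lower, edgeR adjusted p = 2.29e-05). A ratio of 2 genes within a library does not depend on how libraries are scaled. The log2 ratio of RAB5A to RAB5B counts was 0.49, 0.47 and 0.45 in replete and 2.57, 2.05 and 2.50 in depleted libraries, a shift of 1.90 or 3.74-fold. For RAB5B to RAB5C it was −1.96, −1.87 and −1.99 in replete and −3.24, −3.22 and −3.29 in depleted libraries. In both ratios every depleted library lay outside the replete range.

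The ratios of other related pairs shifted as follows. RAB22A over RAB31 shifted by 2.09 on the log2 scale, from −1.76, −2.13 and −1.84 to 0.44, −0.29 and 0.40, so RAB31 had the higher count in each replete library and in depleted replicate 2, but not in depleted replicates 1 and 3. RAB27A over RAB27B shifted by 1.94, from −1.74, −1.68 and −1.89 to −0.19, 0.65 and 0.06, as RAB27B fell further. RAB3B over RAB3D shifted by 1.68, since RAB3D fell further. RAB8A over RAB8B shifted by −0.89, RAB2A over RAB2B by −0.65 and RAB40B over RAB40C by −0.76. RAB5A over RAB5C shifted by 0.59 and RAB11A over RAB11B by 0.50.

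Of the 14 pairs with both genes tested, 10 had ratios that did not overlap between groups, beside 79.4% of all pairs of tested genes, so the count was not above the background. Of the 14, 3 held genes called in opposite directions. The share of such pairs among all genes was not counted. Since 39.1% of all genes tested rose and 39.4% fell, opposite calls are frequent among pairs of any genes. Each of the 10 had an exact two-sided permutation p of 0.1, the smallest that 3 against 3 libraries can give, and 0.14 after Benjamini-Hochberg adjustment over the 14 pairs. None can therefore pass a threshold of 0.05 in this design. The ratios overlapped for RAB1A over RAB1B (0.30), RAB6A over RAB6B (−0.85), RAB9A over RAB9B (0.15) and RAB32 over RAB38 (−0.09).

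**Figure D3:**
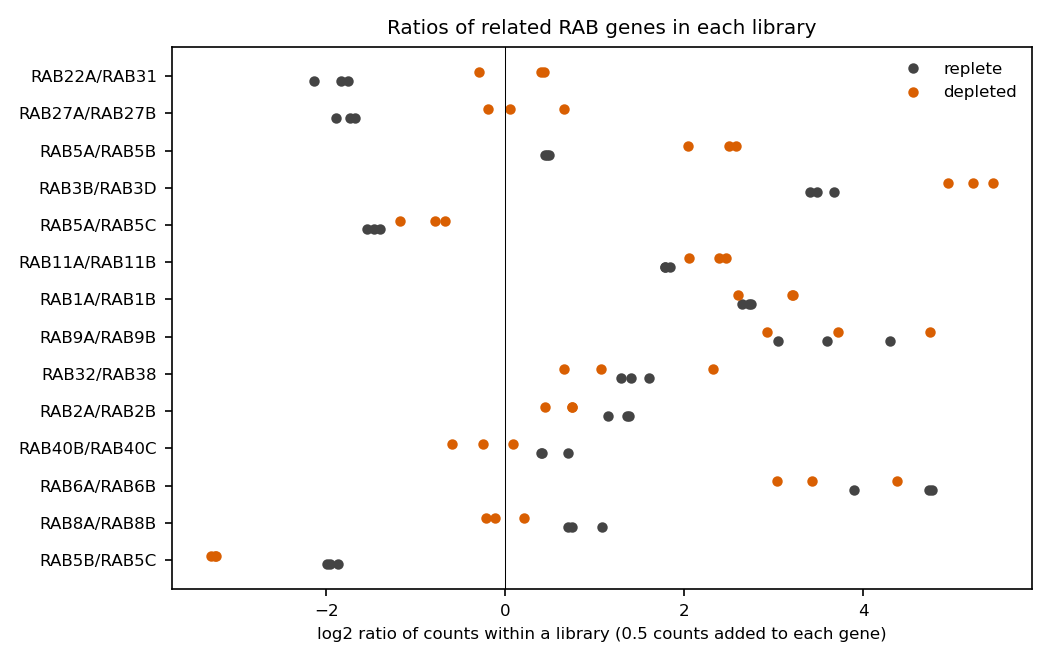
Log2 ratio of the counts of 2 related RAB genes within each library (x axis, 0.5 counts added to each gene), one row per pair, with points for the 3 replete and 3 depleted libraries. The groups stand apart in 10 of 14 rows, with the largest shift for RAB22A/RAB31, where the mean moved by 2.09.

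Of the 11 lysosomal RABs tested, 6 rose, which is 54.5%, beside 39.1% of all genes tested. RAB7A, the RAB of late endosomes that drives their fusion with lysosomes and autophagosomes, stood at 148, 137 and 149 CPM in replete and 419, 416 and 414 CPM in depleted libraries (3.37-fold higher, log2 fold change 1.75, SE 0.07, edgeR adjusted p = 9.11e-11). RAB39B, mutated in X-linked intellectual disability with early parkinsonism and linked to autophagy, went from 51.6, 62.8 and 57.2 to 171, 163 and 163 CPM (3.399-fold higher, log2 fold change 1.77, SE 0.09). Neither gene had overlapping groups, and the depleted libraries differed little among themselves. RAB29, which recruits the kinase LRRK2 to the Golgi and stressed lysosomes, went from 32.8, 32.1 and 32.6 to 63.03, 66.3 and 62.2 CPM (2.300-fold higher). RAB32, a RAB of melanosomes and other lysosome-related organelles, went from 25.3, 27.9 and 28.3 to 53.96, 60.1 and 62.6 CPM (2.54-fold higher, edgeR adjusted p = 5.65e-08).

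RAB38 and RAB9A rose with wide spread in the depleted group. RAB38, the partner of RAB32 in melanosome formation, had 9.53, 9.09 and 11.5 CPM in replete and 34.3, 12.03 and 29.9 CPM in depleted libraries (log2 fold change 1.57, SE 0.41, edgeR adjusted p = 0.0123). Depleted replicate 2 lay just above the replete range, well below the other depleted libraries. The adjusted p of RAB38 was 0.0515 without replete replicate 1 and 0.0501 without a count filter, within 2.14e-15 to 0.0515 over its 14 alternatives. RAB9A, which returns receptors from late endosomes to the Golgi, had 16.7, 15.03 and 16.8 CPM in replete and 28.2, 14.3 and 26.2 CPM in depleted libraries (log2 fold change 0.73, SE 0.22, edgeR adjusted p = 0.00984), with depleted replicate 2 below every replete library. It did not pass with library totals alone (0.0601) or without replete replicate 2 (0.0526), with a range of 3.40e-09 to 0.0601 over its alternatives.

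RAB12, which sends the transferrin receptor to lysosomes, was the lysosomal RAB that fell, from 125, 130.2 and 127 to 38.5, 46.96 and 40.96 CPM (2.58-fold lower, log2 fold change −1.37, SE 0.09, edgeR adjusted p = 1.93e-08). RAB34, which positions lysosomes and acts in cilium formation, had 230.2, 223 and 232 CPM in replete and 188, 247 and 201 CPM in depleted libraries. Its log2 fold change was 0.12 (95% interval −0.09 to 0.33, edgeR adjusted p = 0.271), and its direction reversed with library totals alone and without depleted replicate 2. RAB24, an autophagy-linked RAB, had 39.9, 43.6 and 40.7 CPM in replete and 36.1, 43.2 and 35.2 CPM in depleted libraries (log2 fold change 0.11, 95% interval −0.12 to 0.34), reversed with library totals alone. Of its terminal 50-base words, 70% also occur in MXD3, so its counts are uncertain. RAB9B and RAB36 stayed under 2.2 CPM in every library and did not pass.

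The E-box core CACGTG, the centre of the motif read by the lysosomal gene regulators TFEB and TFE3 and also by MYC, was searched in the same promoter windows. It was found in 3 of 16 members that rose, 2 of 15 that fell and 1 of 8 not called, beside 7.26% of all windows and 12.8% of tested genes. The stretches show that it occurs on both sides: RAB21 at chr12:71754821-71754862 (plus strand), RAB5A at chr3:19946954-19947003 (plus strand) and RAB29 at chr1:205775453-205775474 (minus strand), just after its start, rose, while RAB4A at chr1:229270987-229271036 (plus strand) and RAB31 at chr18:9708219-9708268 (plus strand) fell. Capitals mark the motif, which reads the same on both strands.
RAB21: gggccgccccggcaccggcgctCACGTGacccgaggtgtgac
RAB5A: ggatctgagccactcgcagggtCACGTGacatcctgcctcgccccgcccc
RAB29: aggcaaccctgCACGTGacgct
RAB4A: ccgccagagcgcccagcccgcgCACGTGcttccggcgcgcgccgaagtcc
RAB31: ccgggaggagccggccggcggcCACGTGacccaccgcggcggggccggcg
The windows of RAB7A and RAB32 do not hold these letters. The C/EBP-ATF composite motif TGATGNAA was found in RAB28 alone of the 48 members, beside 3.62% of all windows and 2.68% of tested genes. TGACGT was found in 5 of the 48 members (10.4%, beside 14.4% of tested genes), of which 3 were not tested. CCAAT was found in 15 members (31.25%, beside 43.4% of tested genes). The composite endoplasmic reticulum stress element was found in 0 members, beside 0.16% of tested genes.

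RABs outside these classes stayed under 20 CPM in every library. RAB40B, which carries a SOCS box and works with a ubiquitin ligase, went from 9.97, 7.704 and 9.01 CPM in replete to 1.74, 2.41 and 1.85 CPM in depleted libraries (3.82-fold lower). Its relative RAB40C went from 6.09, 5.81 and 6.75 to 2.66, 2.86 and 1.73 CPM (2.18-fold lower). Neither gene had overlapping groups. RAB28, a RAB of photoreceptor cilia, went from 13.5 ± 1.04 to 16.7 ± 0.147 CPM (n = 3 per group, 1.45-fold higher, edgeR adjusted p = 0.00181). RAB23, a brake on Hedgehog signalling, went from 12.8 ± 1.44 to 6.19 ± 0.411 CPM (n = 3 per group, 1.76-fold lower). All terminal 50-base words of RAB23 also lie in BAG2 on the other strand, so its counts may include reads of BAG2.

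The 12 members that could not be tested had few or no counts. RAB4B, RAB19, RAB37 and RAB44 had a count of 0 in every library. RAB17, RAB25 and RAB39A, of which RAB17 and RAB25 are known from polarised epithelia, had at most 2 counts over all 6 libraries. RAB33A, RAB41 and RAB42 had 5, 9 and 10 counts in all. RAB40A had 31 counts over the depleted and 27 over the replete libraries, and RAB3A is given above.

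Summed over all 61 members, RAB transcripts made up 3553, 3548 and 3541 CPM in replete and 4234, 4112 and 4153 CPM in depleted libraries. By class, the lysosomal RABs took 19.2%, 19.3% and 19.7% of RAB counts in replete and 24.5%, 26.1% and 24.98% in depleted libraries. The endosomal share was 33.7% to 33.8% in replete and 35.2% to 36.7% in depleted libraries. The secretory share was 45.4% to 45.9% in replete and 36.5% to 39.7% in depleted libraries. Within it, the RAB3 and RAB27 genes took 11.7%, 11.7% and 11.8% of RAB counts in replete and 2.04%, 2.42% and 1.95% in depleted libraries. Shares of a whole move against each other by construction, and abundant genes weigh most in them. Among lysosomal RABs, mean CPM went from 145 to 417 for RAB7A and from 57.2 to 166 for RAB39B, while RAB12 fell from 127 to 42.1. Among secretory RABs, RAB3B fell from a mean of 335 to 77.7 CPM, while RAB1A rose from 239 to 496 CPM. The shares therefore do not show a shift of each gene in a class.

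**Figure D4:**
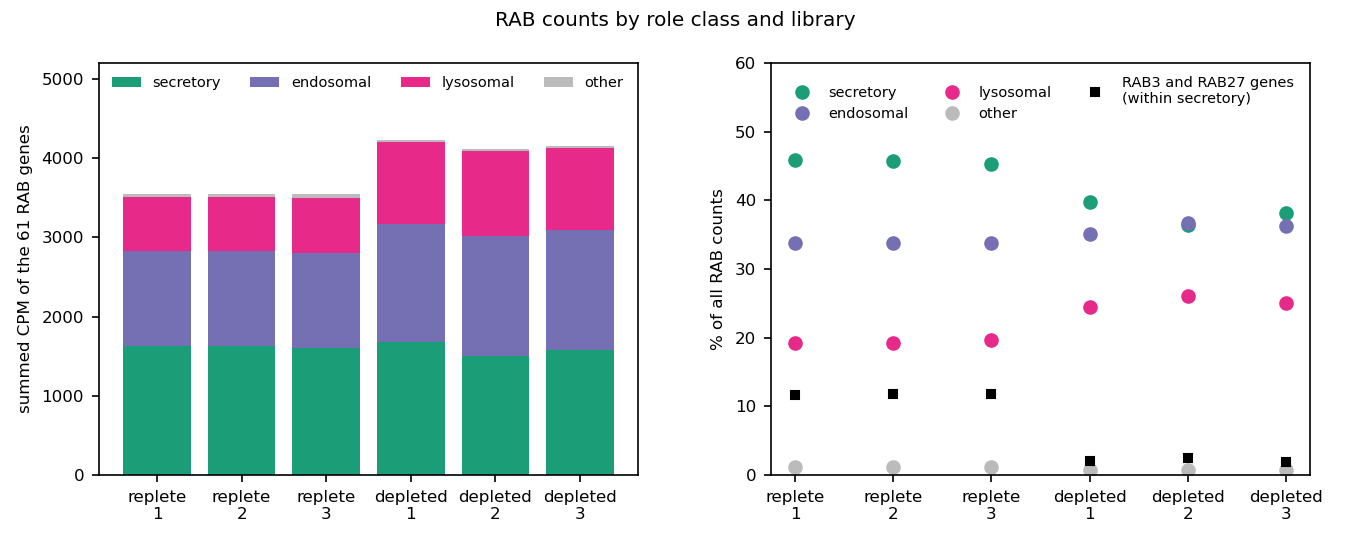
Left, summed CPM of the 61 RAB genes per library, stacked by class; right, the percent of all RAB counts in each class per library, with RAB3 and RAB27 genes as squares. Depleted libraries total 4112 to 4234 CPM against 3541 to 3553 CPM in replete ones, with a lysosomal share of 24.5% to 26.1% against 19.2% to 19.7%.

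The machinery that loads, unloads and reads RABs was described from 4 lists of textbook factors. The proteins that prenylate RABs and carry them in the cytosol moved in both directions. Of 10 tested, 4 rose and 3 fell, with a median log2 fold change of 0.00. That is 40% and 30%, beside 39.1% and 39.4% of all genes tested. The escort proteins CHM and CHML, which present new RABs for prenylation, rose, CHM from 44.97, 42.7 and 41.98 to 73.8, 49.8 and 75.9 CPM and CHML from 68.3, 54.3 and 64.8 to 141, 101 and 129.8 CPM (2.32-fold higher, edgeR adjusted p = 1.63e-06). RABAC1, a receptor that takes RABs from GDI, RABIF, a chaperone of RABs in exocytosis, and the related membrane protein ARL6IP5 had log2 fold changes of −0.68, −0.52 and −0.29, each called lower. RABGGTB, the catalytic subunit of the prenylating enzyme, ranged from 9.28 to 61.8 CPM in depleted and from 67.7 to 97.6 CPM in replete libraries and did not pass (log2 fold change −1.07, edgeR adjusted p = 0.216). It was named after its values were seen, and its exons overlap snoRNA genes.

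Of 46 exchange factors tested, 20 rose and 16 fell, with a median of 0.30, beside 39.1% and 39.4% of all genes. RAB3GAP1 and RAB3GAP2, whose complex switches RAB3 off and RAB18 on, rose 2.49-fold and 3.34-fold, RAB3GAP2 from 103, 96.7 and 103 to 286, 294 and 284 CPM. ANKRD27, an exchange factor for RAB21, fell from 45.3, 41.9 and 40.5 to 7.88, 6.19 and 5.31 CPM (5.58-fold lower). RIN1, a RAS-linked activator of RAB5, fell 3.905-fold, and TRAPPC1, a subunit of the complex that activates RAB1, fell 2.12-fold. The subunits of the TRAPP complexes went both ways: of 14 tested, 5 rose, 5 fell and 4 did not pass, and TRAPPC6B, named after its values were seen, rose 2.91-fold.

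Of 37 GTPase-activating proteins, 12 rose and 17 fell, with a median of −0.36. That is 32.4% and 45.9%, beside 39.1% and 39.4% of all genes tested. TBC1D4, known as AS160 for its control of RAB10 and glucose transporter delivery, fell from 31.6, 26.02 and 26.6 CPM to at most 1.83 CPM in each depleted library, with 20, 15 and 13 counts (14.1-fold lower, log2 fold change −3.82, SE 0.18, edgeR adjusted p = 5.37e-10). TBC1D24, mutated in epilepsy, and SGSM2 fell 5.66-fold and 4.22-fold. TBC1D22B, a Golgi factor, rose from 6.31, 7.199 and 5.83 to 32.7, 35.7 and 31.4 CPM (6.03-fold higher), TBC1D19 rose 4.28-fold and RABGAP1 rose 2.900-fold.

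Of 65 effectors and adaptors tested, 23 rose and 24 fell, with a median of 0.08. That is 35.4% and 36.9%, beside 39.1% and 39.4% of all genes tested. Effectors of RAB27 went both ways. SYTL4, the granule-docking protein granuphilin, fell from 34.8, 37.3 and 37.1 to 3.94, 4.01 and 3.69 CPM (7.98-fold lower, edgeR adjusted p = 4.13e-10), and MLPH, which links RAB27A to myosin Va, fell from 81.2, 74.9 and 68.6 to 19.9, 19.8 and 16.6 CPM (3.404-fold lower). SYTL2, a relative of SYTL4, rose from 12.1, 15.8 and 14.8 to 58.4, 43.6 and 51.6 CPM (4.23-fold higher, edgeR adjusted p = 1.41e-08), and EXPH5, a further RAB27 effector, rose 2.19-fold at under 4 CPM in every library. MYRIP, RPH3AL and RPH3A, further RAB27 effectors, were each called lower, with log2 fold changes of −1.22, −0.68 and −3.60. MYRIP and RPH3A had no more than 2.38 CPM in any library. SYTL2, EXPH5, MYRIP, RPH3AL and RPH3A were named after their values were seen. APPL1, a RAB5 effector of signalling endosomes, fell 2.47-fold. MYO5B, the motor of RAB11 vesicles, rose from 18.8, 16.2 and 16.02 to 71.00, 71.02 and 73.7 CPM (4.93-fold higher). VPS41, a subunit of the HOPS tether that works with RAB7, rose from 14.95, 17.2 and 15.5 to 62.2, 73.1 and 60.2 CPM (4.81-fold higher), and PLEKHM2, an adaptor that moves lysosomes along microtubules, rose 3.67-fold. Exons of CHML, SGSM2, RABGAP1, TBC1D22B, SYTL4, APPL1, MYO5B, ANKRD27, TRAPPC1 and RAB3GAP1 overlap another counted gene, as do those of 14 of the 49 tested RAB members, RAB1A, RAB2B, RAB4A, RAB5A and RAB40C among them.

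**Figure D5:**
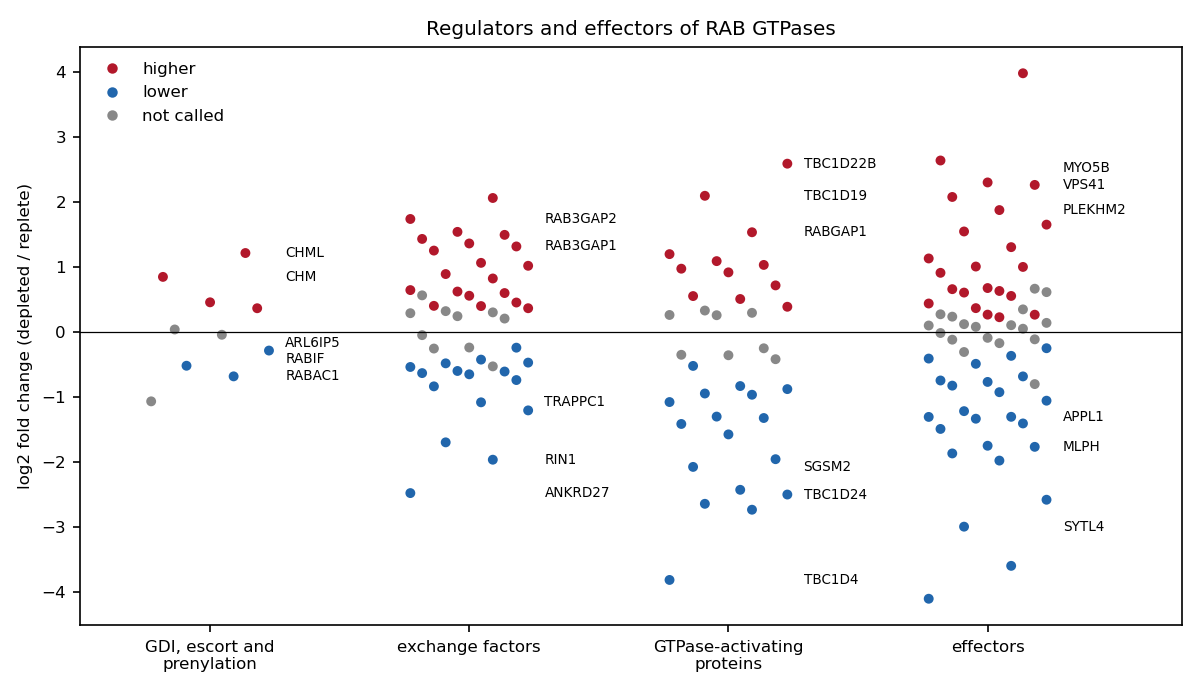
Log2 fold change (y axis, depleted over replete) of the tested genes in 4 lists of RAB regulators and effectors; each point is a gene, coloured by its call and spread sideways for legibility, and the names beside each column stand at about the height of their points. All lists hold genes on both sides of 0, from TBC1D4 at −3.82 to TBC1D22B at 2.59 among the GTPase-activating proteins.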

How the data were processed

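RNA of 6 H460 libraries was measured by QuantSeq 3′ mRNA sequencing. Bowtie2, edgeR and hg19 appear, without roles, in the submitters' processing notes. Per gene symbol, the authors deposited raw counts (checked on the values: whole numbers with totals that differ by library), and the counting program, annotation and use of strand are not given in the sources used here. Of 25737 entries per file, counts of the 286 symbols on several entries were summed; no RAB symbol was affected.

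Genes passing filterByExpr (minimum count 10, minimum total 15) were scaled by TMM factors (0.917 to 0.929 in depleted, 1.08 to 1.09 in replete libraries) and compared between groups by edgeR 4.0.16 (R 4.3.3), using quasi-likelihood tests with robust dispersions, two-sided, with Benjamini-Hochberg adjustment over all genes. Standard errors are the log2 fold change over the square root of F. The test was tried on simulated data in which few genes changed. In the data here most genes were called, so that trial does not check the scaling or the error rate under such change. Paralogue ratios (0.5 counts added) used exact permutation of libraries. Overlaps came from GENCODE 29 and promoters from RefSeq on GRCh38.p14.

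Values per library are given, in each class, for the 5 members of smallest p per direction, for uncalled members of at least 20 CPM and for paralogue pairs; in the lists, the 3 called genes with the smallest p in each direction are named, except for some that are not reported here. Members, classes and lists were chosen with earlier results of these data known. Alternatives were DESeq2 size factors, library totals, other filters, DESeq2 1.42.0, limma-voom (limma 3.58.1), a replicate block, leaving out each library, and the largest entry per symbol.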

Additional observations from a re-analysis of the deposited data

How the results depend on the processing

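Over the 49 tested members, 40 kept their direction and call in every alternative in which they could be tested, and 9 did not. The counts of members that rose and fell stayed within 1.5 times of 21 and 18 in all alternatives. With library totals alone, RAB24 (−0.12), RAB34 (−0.11) and RAB8A (−0.17) reversed on the log2 scale, and 2 in place of 4 genes of the prenylation and escort list rose. RAB8A was also reversed with a mean CPM of at least 10 (−0.0401) and without replete replicate 3. Leaving out 1 library at a time gave −0.0691 to 0.180 for RAB8A and −0.00689 (without depleted replicate 2) to 0.210 for RAB34. A mean CPM of at least 10, which tests fewer genes, left 7 GTPase-activating proteins that rose and 11 that fell, and 0 of the other RABs that fell.

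The labels do not say whether the replicate numbers pair the libraries. Deviations of same-numbered libraries correlated at 0.12, 0.01 and 0.04, and those of differently numbered libraries at −0.09 to 0.05. With 3 libraries per group these values cannot settle whether the libraries are paired. With a replicate block, RAB18 was called lower (log2 fold change −0.19, adjusted p = 0.0325), and no other member changed its call. Depth limits the members under about 5 CPM, for which a few counts decide the value.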
